A study of Mus musculus with 16 samples.

Results

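The 10 genes described here belong to Toll-like receptor sensing and were measured by bulk RNA sequencing of mouse brain. They are the receptors Tlr1, Tlr2, Tlr4, Tlr7 and Tlr9, the co-receptors Cd14, Ly86 and Ly96, the trafficking chaperone Unc93b1 and the adaptor Myd88. Members were chosen by symbol, and all 10 were found among the 54532 entries of the deposited count table and passed the filter on low counts with 17736 genes in all. The 16 libraries came from female mice of 9 months and formed 4 groups of 4. Within Ch25h+/+, 4 were Tau- and 4 were Tau+, and the same split held within Ch25h-/-. Ch25h encodes cholesterol 25-hydroxylase, which turns cholesterol into the oxysterol 25-hydroxycholesterol, and -/- marks mice without it. Tau+ libraries are taken to come from mice with a tau transgene and Tau- libraries from mice without one. The transgene's line and promoter and the way Ch25h was inactivated are not given in the sources used here, and no label says that the 4 libraries of a group are separate animals, so p-values measure the spread between these libraries, which may be in part technical. The sample labels give frontal cortex as the tissue, whereas the series description gives hippocampus. Cortical markers (Cux2, Tbr1, Rorb, Fezf2 and Lamp5) summed to 551 to 750.0 CPM (counts scaled to the library total, with TMM factors) and hippocampal markers (Prox1, Spink8, Fibcd1, C1ql2 and Dsp) to 33.2 to 73.7 CPM.

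Toll-like receptors bind microbial molecules and products of damaged cells and signal through adaptors, chiefly Myd88, to the transcription factors NF-kappaB and the interferon regulatory factors. Tlr2 with Tlr1 binds lipopeptides at the cell surface, Tlr4 binds lipopolysaccharide there with Ly96 (MD-2) after Cd14 has handed it over, and Tlr7 and Tlr9 sense RNA and DNA in endosomes, where Unc93b1 brings them. In the brain these genes are known mainly from microglia, the resident macrophages, and less from astrocytes and neurons.

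Library totals were 15530352 to 25602500 counts. Ch25h had 0 counts in all 8 Ch25h-/- libraries and averaged 0.370 ± 0.143 CPM (SD, n = 4) in Ch25h+/+ Tau- and 0.962 ± 0.318 CPM (SD, n = 4) in Ch25h+/+ Tau+. Prnp, whose promoter drives some tau transgenes, rose 2.14-fold with tau in each Ch25h genotype (adjusted p = 2.43e-06 in Ch25h+/+ and 9.36e-06 in Ch25h-/-, edgeR). The ribosomal RNA entry CT010467.1 took 2289 to 5684 CPM of total counts in 7 of 8 Ch25h-/- libraries, whereas the remaining 9 libraries held 110.8 to 474.6 CPM, so that rRNA-rich libraries occurred only in Ch25h-/-. The exception among the Ch25h-/- libraries was Tau+ replicate 1. Choroid plexus markers ran from 15.8 to 2730 CPM, with high and low libraries in every group.

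Levels of different genes were compared per kilobase of merged exon. Unc93b1 was the highest of the 10 genes in every group, at 5.0 CPM per kilobase in Ch25h+/+ Tau-, 9.22 in Ch25h+/+ Tau+, 4.40 in Ch25h-/- Tau- and 5.35 in Ch25h-/- Tau+. Its libraries did not overlap those of the next gene, Ly86, in any group. Tlr1 had the lowest mean in every group, at 0.0839 to 0.265 CPM per kilobase, and Tlr4 came next from the bottom. Libraries of Tlr4 and Tlr1 overlapped in both Tau+ groups, and in Ch25h+/+ Tau+ the means were nearly equal, at 0.267 and 0.265. In Ch25h+/+ Tau- the libraries of Ly86, Myd88 and Cd14 overlapped as neighbours, as did those of Tlr9, Tlr7, Ly96 and Tlr2. In Ch25h+/+ Tau+ Tlr2 stood above Tlr9 in mean, with overlapping libraries, while in the other 3 groups it stood below Tlr9, Tlr7 and Ly96.

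The first comparison asked what tau does where Ch25h is present. In Ch25h+/+, 5 of the 10 genes rose with tau past an adjusted p of 0.05 (edgeR quasi-likelihood test, Benjamini-Hochberg over all 17736 genes) and none fell. They were Tlr2, Tlr1, Cd14, Ly86 and Unc93b1, with folds from 1.84 to 4.18. The background of this comparison was 1.56% of genes past the threshold in either direction and 1.47% higher. All 10 log2 fold changes were above 0, as were 47.8% of those over all genes, with a median of 0.83 and a range of 0.20 to 2.06. For those 5 genes every Tau+ library lay above every Tau- library, a separation found for 3.9% of all genes. An unadjusted p under 0.05 was found for 7 of the 10 genes, against 9.39% of all genes.

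**Figure D1:**
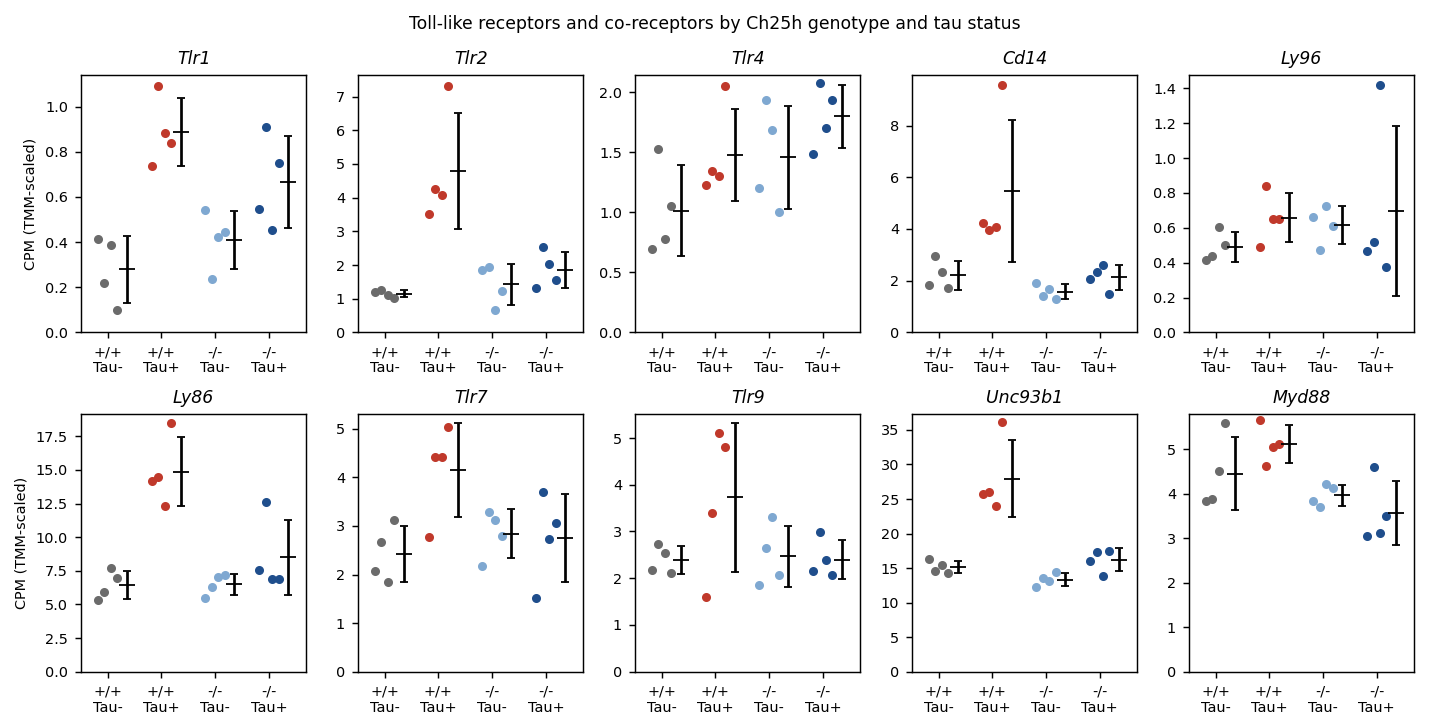
Level of each of the 10 genes in CPM (TMM-scaled, linear axes from 0) in the 16 libraries. Points are libraries and the horizontal marks and bars are the mean and SD of 4 libraries; the Ch25h+/+ Tau+ points of Tlr2, Cd14 and Unc93b1 lie above every other library.

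Tlr2 encodes the surface receptor that pairs with Tlr1 or Tlr6 to bind bacterial lipopeptides, and lies on chromosome 3 (GRCm38 chr3:83836272-83841767, minus strand). It was read at 1.20, 1.26, 1.12 and 1.01 CPM in Ch25h+/+ Tau- and at 3.51, 4.24, 4.09 and 7.32 CPM in Ch25h+/+ Tau+ (replicates 1 to 4). The Ch25h-/- libraries held 1.87, 1.94, 0.662 and 1.23 CPM in Tau- and 1.33, 2.53, 2.04 and 1.56 CPM in Tau+. All 4 Ch25h+/+ Tau+ libraries lay above the other 12, Ch25h-/- Tau- overlapped both of the remaining groups, and Ch25h-/- Tau+ lay just above Ch25h+/+ Tau-. With tau, Tlr2 rose 4.18-fold in Ch25h+/+ (95% interval 2.78 to 6.28, adjusted p = 0.000769 by edgeR's quasi-likelihood test), the largest rise among the 10 genes. In Ch25h-/- the fold was 1.30 (0.845 to 1.99), with an adjusted p of 1. In Tau+ the level was 2.6-fold lower without Ch25h (log2 fold change -1.38, SE 0.29, adjusted p = 0.0182 by the same test). This difference missed the threshold when Ch25h+/+ Tau+ replicate 4 was left out (log2 fold change -1.10, adjusted p = 0.0816), and likewise for Ch25h-/- Tau+ replicate 3 (-1.44, 0.0558) or replicate 4 (-1.32, 0.0655).

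Promoter sequence was at hand for 5 of the 10 genes (RefSeq windows, GRCm38.p6: Tlr1, Tlr2, Tlr9, Ly86 and Myd88). Of these, Tlr2, Tlr1 and Ly86 rose together in Ch25h+/+, and the stretch just before their first annotated exon is shown so that the sequence can be read beside the levels. Capitals mark matches on either strand to 1 of 3 patterns: GGG, any 5 bases and CC for NF-kappaB; GAGGAAGT for PU.1, a macrophage transcription factor; and GAAA, any 2 bases and GAAA for the interferon-stimulated response element.
Tlr2, chr3:83841768-83841858, minus strand: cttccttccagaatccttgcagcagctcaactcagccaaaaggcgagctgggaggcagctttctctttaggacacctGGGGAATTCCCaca
Tlr1, chr5:64933564-64933808, minus strand: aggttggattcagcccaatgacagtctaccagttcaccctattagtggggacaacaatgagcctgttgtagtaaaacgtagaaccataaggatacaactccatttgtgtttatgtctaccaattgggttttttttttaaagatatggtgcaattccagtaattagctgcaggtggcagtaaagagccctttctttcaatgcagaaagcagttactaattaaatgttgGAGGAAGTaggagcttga
Ly86, chr13:37345095-37345207, plus strand: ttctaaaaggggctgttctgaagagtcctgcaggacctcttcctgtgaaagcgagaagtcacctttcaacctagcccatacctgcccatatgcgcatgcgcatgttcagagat

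The Tlr2 stretch held 3 overlapping matches to the NF-kappaB letters within 11 capitals, with bases 79 to 88 matched once on each strand. The pattern was found in 45.8% of the 32851 promoter windows of 250 bases. The Tlr1 stretch held 1 match to the PU.1 letters, found in 2.44% of windows, and the Ly86 stretch held none of the 3 patterns. The Myd88 window held 1 match to the interferon-stimulated response element, found in 2.98% of windows, and the Tlr9 window held none. A match is a description of the letters only.

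Tlr1 (chr5:64924679-64933563, minus strand), the partner of Tlr2 for triacylated lipopeptides, was counted at low depth, with 175 counts over the 16 libraries. It was read at 0.415, 0.219, 0.388 and 0.101 CPM in Ch25h+/+ Tau- and at 0.738, 1.09, 0.882 and 0.839 CPM in Ch25h+/+ Tau+. In Ch25h-/- it was read at 0.542, 0.235, 0.421 and 0.446 CPM in Tau- and at 0.547, 0.909, 0.454 and 0.749 CPM in Tau+. The Ch25h+/+ groups did not overlap, while Ch25h-/- Tau+ overlapped Ch25h-/- Tau- and Ch25h+/+ Tau+. Tlr1 rose 3.08-fold with tau in Ch25h+/+ (95% interval 1.82 to 5.20, adjusted p = 0.0367, edgeR), and the fold in Ch25h-/- was 1.59 (0.928 to 2.71, adjusted p = 1). No Ch25h+/+ Tau- library reached the filter's 0.543 CPM of total counts for Tlr1, against 4 in Ch25h+/+ Tau+, 1 in Ch25h-/- Tau- and 3 in Ch25h-/- Tau+. Leaving out single libraries ended the call in 5 of 16 fits, with adjusted p up to 0.135. The call was also lost with no filter on low counts (adjusted p = 0.0592, edgeR) and in a fit of only the 8 Ch25h+/+ libraries (0.0853). The libraries left out in those 5 fits were Ch25h+/+ Tau- replicates 2 and 4 and Ch25h+/+ Tau+ replicates 2, 3 and 4. Tlr1 and Tlr6 are closely related neighbours 18.5 kb apart, and reads may have been split between them.

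Cd14, the lipopolysaccharide carrier that serves Tlr4 and Tlr2 (chr18:36725067-36726798, minus strand), was read at 1.85, 2.95, 2.33 and 1.71 CPM in Ch25h+/+ Tau-. In Ch25h+/+ Tau+ it was read at 4.25, 3.95, 4.09 and 9.56 CPM. The Ch25h-/- libraries held 1.93, 1.41, 1.69 and 1.28 CPM in Tau- and 2.07, 2.34, 2.61 and 1.5 CPM in Tau+. Again the 4 Ch25h+/+ Tau+ libraries were the highest of all, and replicate 4 stood far above its own group. Cd14 rose 2.48-fold with tau in Ch25h+/+ (95% interval 1.69 to 3.62, adjusted p = 0.0176, edgeR), and the log2 fold change without replicate 4 was 0.89, with an adjusted p of 0.0859. The call was also lost without Ch25h+/+ Tau- replicate 1 (1.24, adjusted p = 0.076, edgeR) or replicate 4 (1.21, 0.0793), and in a fit of only the 8 Ch25h+/+ libraries (1.32, 0.0926). In Tau+ Cd14 was 2.56-fold lower without Ch25h (log2 fold change -1.36, SE 0.28, adjusted p = 0.0167, edgeR). Leaving out Ch25h+/+ Tau+ replicate 4 (-0.95, 0.0645) or Ch25h-/- Tau+ replicate 4 (-1.24, 0.0655) ended that call.

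The 2 other genes of lipopolysaccharide sensing did not pass the test in any comparison, by edgeR or under any alternative run, and none had an unadjusted p under 0.05. Tlr4 (chr4:66827584-66930284), the signalling receptor, averaged 1.01 ± 0.378 CPM (SD, n = 4) in Ch25h+/+ Tau-, 1.48 ± 0.383 in Ch25h+/+ Tau+, 1.46 ± 0.430 in Ch25h-/- Tau- and 1.80 ± 0.260 in Ch25h-/- Tau+. All neighbouring groups overlapped, and Tlr4 was highest in Ch25h-/- Tau+, unlike Cd14. Its fold with tau in Ch25h+/+ was 1.48 (95% interval 0.998 to 2.19, adjusted p = 0.59, edgeR). Ly96 (chr1:16688051-16709611), which encodes the MD-2 subunit that holds the lipid, was counted 190 times in all 16 libraries, at 0.490 to 0.695 CPM in the group means. The highest mean, in Ch25h-/- Tau+, came from 1.42 CPM in replicate 3 against 0.374 to 0.519 CPM in the other 3. The intervals of Ly96 folds were wide, for example 0.799 to 2.28 for tau in Ch25h+/+.

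Ly86 encodes MD-1, the secreted partner of the receptor-like protein Cd180, and lies on chromosome 13 (chr13:37345208-37419036, plus strand). It was read at 5.35, 5.90, 7.67 and 6.95 CPM in Ch25h+/+ Tau- and at 14.2, 14.5, 12.4 and 18.5 CPM in Ch25h+/+ Tau+. In Ch25h-/- it was read at 5.48, 6.29, 7.04 and 7.19 CPM in Tau- and at 7.58, 12.6, 6.92 and 6.86 CPM in Tau+. The Tau+ groups overlapped through a single library, Ch25h-/- Tau+ replicate 2, which lay just above the lowest Ch25h+/+ Tau+ library. Ly86 rose 2.30-fold with tau in Ch25h+/+ (95% interval 1.78 to 2.96, adjusted p = 0.00139, edgeR), with the call kept in all 16 fits that left out 1 library. In Ch25h-/- the fold was 1.30 (1.0 to 1.69, adjusted p = 1, edgeR). In Tau+ Ly86 was 1.76-fold lower without Ch25h (log2 fold change -0.81, SE 0.19, adjusted p = 0.0278, edgeR), and leaving out Ch25h+/+ Tau+ replicate 4 (-0.70, 0.0993), Ch25h-/- Tau+ replicate 3 (-0.74, 0.102) or Ch25h-/- Tau+ replicate 4 (-0.74, 0.0906) ended this call. Cd180 itself averaged 1.70 CPM in Ch25h+/+ Tau- and 4.05 CPM in Ch25h+/+ Tau+ without overlap, a 2.37-fold difference that did not pass (adjusted p = 0.131, edgeR) but was called by DESeq2, with no filter on low counts and in a fit of only the 8 Ch25h+/+ libraries.

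Unc93b1 carries Tlr7, Tlr9 and other nucleic acid sensors from the endoplasmic reticulum to endosomes, and lies on chromosome 19 (chr19:3935186-3949340, plus strand), 30.5 Mb from Ch25h. It had the highest counts of the 10 genes, 204 to 775 per library. It was read at 16.3, 14.5, 15.4 and 14.3 CPM in Ch25h+/+ Tau- and at 25.7, 26.0, 24.0 and 36.1 CPM in Ch25h+/+ Tau+. In Ch25h-/- it was read at 12.3, 13.5, 13.1 and 14.5 CPM in Tau- and at 16.1, 17.4, 13.9 and 17.5 CPM in Tau+. The lowest Ch25h+/+ Tau+ library lay well above the highest of the other 12. Unc93b1 rose 1.84-fold with tau in Ch25h+/+ (95% interval 1.57 to 2.17, adjusted p = 0.000319, edgeR). In Tau+ it was 1.73-fold lower without Ch25h (log2 fold change -0.79, SE 0.12, adjusted p = 0.00167, edgeR), and both calls were kept in all 16 fits that left out 1 library. In Ch25h-/- its fold with tau was 1.21 (1.03 to 1.43), with an unadjusted p of 0.034 and an adjusted p of 1 (edgeR).

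Its cargo, the endosomal receptors, did not pass with all 16 libraries by edgeR or DESeq2, whereas limma-voom called both. Tlr7 (chrX:167304929-167330558), a sensor of single-stranded RNA, averaged 2.43 ± 0.576 CPM (SD, n = 4) in Ch25h+/+ Tau- and 4.16 ± 0.971 in Ch25h+/+ Tau+, with 2.84 ± 0.498 and 2.75 ± 0.913 in Ch25h-/- Tau- and Tau+. The fold with tau in Ch25h+/+ was 1.72 (95% interval 1.22 to 2.43, adjusted p = 0.192, edgeR), and Ch25h+/+ Tau+ replicate 1, at 2.77 CPM, lay within the Tau- range. Tlr9 (chr9:106222598-106226883), a sensor of unmethylated CpG DNA, was read at 1.60, 3.40, 5.11 and 4.80 CPM in Ch25h+/+ Tau+, so that the same replicate 1 was its lowest library of all 16. The other groups of Tlr9 averaged 2.39 to 2.47 CPM. Its fold with tau in Ch25h+/+ was 1.57 (1.08 to 2.28, adjusted p = 0.428, edgeR), and 0.90 on the log2 scale without replicate 1 (adjusted p = 0.0405, edgeR). Without replicate 1, Tlr9 was also lower with Ch25h loss in Tau+ (log2 fold change -0.90, adjusted p = 0.0442, edgeR), against -0.65 with it (0.162). By limma-voom with quality weights both receptors passed for tau in Ch25h+/+, Tlr7 at 0.95 on the log2 scale (adjusted p = 0.0147) and Tlr9 at 0.80 (0.047), beside 2.81% of all genes. Both also passed by limma-voom for Ch25h loss in Tau+, Tlr7 at -0.69 (adjusted p = 0.0466) and Tlr9 at -0.82 (0.0317), beside 10.6% of all genes.

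Myd88, the adaptor used by all of these receptors (chr9:119335934-119341411, minus strand), gave the smallest tau effect in Ch25h+/+. It was read at 3.83, 3.88, 4.53 and 5.59 CPM in Ch25h+/+ Tau- and at 5.66, 4.62, 5.06 and 5.13 CPM in Ch25h+/+ Tau+. In Ch25h-/- it was read at 3.85, 3.7, 4.21 and 4.12 CPM in Tau- and at 3.05, 4.61, 3.12 and 3.49 CPM in Tau+. The 2 Ch25h+/+ groups overlapped, and in Tau+ the Ch25h-/- libraries lay below the Ch25h+/+ libraries by a narrow margin. Its fold with tau in Ch25h+/+ was 1.15 (95% interval 0.922 to 1.43, adjusted p = 0.846, edgeR), and the difference with Ch25h loss in Tau+ was -0.53 on the log2 scale (adjusted p = 0.0757, edgeR). DESeq2 called this difference (-0.53, adjusted p = 0.0427), as it called 9.79% of all genes, and limma-voom did not (-0.48, 0.0539). Exons of Myd88 share 290 of 2576 bases with Acaa1a on the opposite strand, and the use of strand in counting is not given in the sources used here, so its counts are uncertain to that extent.

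**Figure D2:**
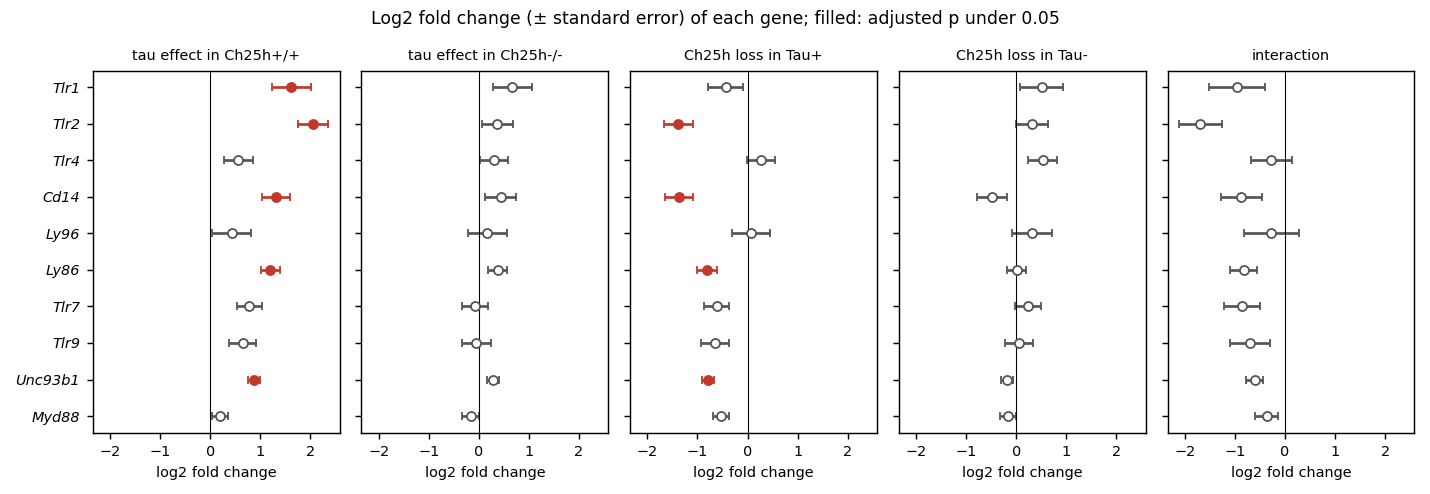
Log2 fold change of the 10 genes in each of the 5 comparisons, with standard errors; filled points passed an adjusted p of 0.05. Filled points stand for 5 genes in the tau effect in Ch25h+/+ and 4 genes in Ch25h loss in Tau+, and there are none in the other 3 panels, including the interaction.

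The second comparison asked what tau does without Ch25h. None of the 10 genes passed in Ch25h-/- (edgeR), where 0.0395% of all genes did. The unadjusted p was under 0.05 for 1 gene, Unc93b1, against 3.68% of all genes, and DESeq2 and limma-voom also called 0. The log2 fold changes were above 0 for 7 genes, with a median of 0.29 and a range of -0.16 to 0.67, while 52.8% of all genes were above 0. The other folds that did not pass are bounded by intervals such as 0.892 to 2.05 for Cd14 and 0.67 to 1.36 for Tlr7, which reach above 1.

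The third comparison set Ch25h-/- against Ch25h+/+ among Tau+ libraries. Tlr2, Cd14, Ly86 and Unc93b1 fell (edgeR), by 1.38, 1.36, 0.81 and 0.79 on the log2 scale, and none rose. The background was 3.55% of genes past the threshold in either direction and 2.4% lower. Of the 10 genes, 8 had log2 fold changes below 0, with a median of -0.64, and 50.7% of those over all genes were above 0. The groups did not overlap in the lower direction for 4 genes, Tlr2, Cd14, Unc93b1 and Myd88, as for 5.75% of all genes. An unadjusted p under 0.05 was found for 7 genes, against 23.9% of all genes. Tlr4 and Ly96 were the genes above 0, at 0.27 and 0.06, and Tlr1 lay at -0.44 (adjusted p = 0.468, edgeR) although it had risen with tau. The direction of Ly96 was not stable, at -0.55 to 0.24 with 1 library left out and -0.13 by limma-voom. This comparison and the tau effect in Ch25h+/+ share the 4 Ch25h+/+ Tau+ libraries, so the 2 sets of values are not independent.

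Library class moved with genotype here, since 3 of the 4 Ch25h-/- Tau+ libraries were rRNA-rich and none of the Ch25h+/+ libraries was. With the class as a covariate, the Ch25h-/- side of this comparison rests on replicate 1 of Ch25h-/- Tau+. It is the only rRNA-poor library of Ch25h-/-, and within every other group all libraries were of the same class. The fit therefore could not separate Ch25h loss from library class beyond that library, and no count of genes is given for it. The log2 fold changes with the covariate were -1.85 for Tlr2, -1.40 for Cd14, -0.97 for Ly86 and -0.80 for Unc93b1 (edgeR). They set that library alone against Ch25h+/+ Tau+. It held 1.33 CPM of Tlr2, 2.07 of Cd14, 7.58 of Ly86 and 16.1 of Unc93b1, each below all 4 Ch25h+/+ Tau+ libraries. Genotype and library class cannot be fully told apart in this design. In a fit of only the 8 Tau+ libraries, Unc93b1 was the 1 gene that passed (adjusted p = 0.0367, edgeR), and Tlr2, Cd14 and Ly86 were at 0.0527, 0.0834 and 0.0989.

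**Figure D3:**
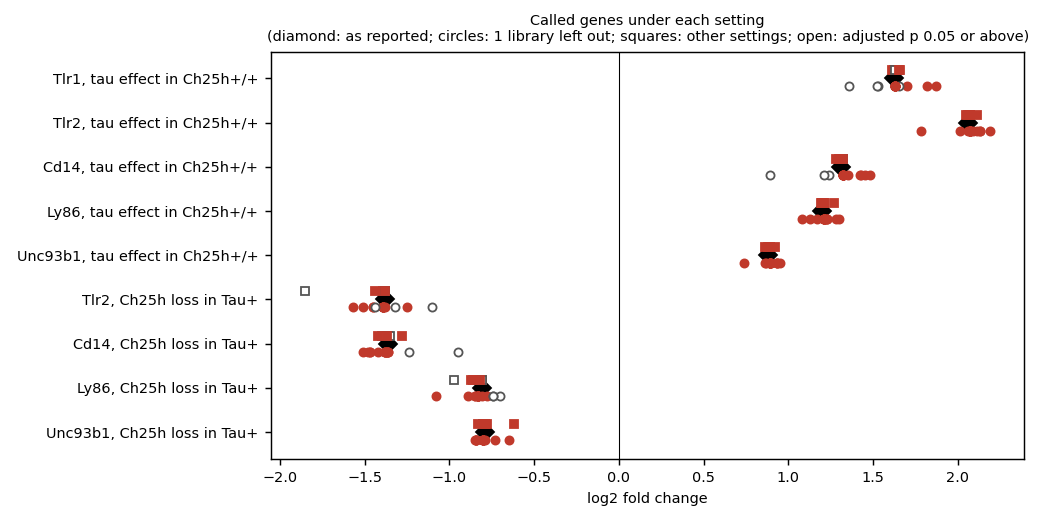
Log2 fold change of each gene called in the tau effect in Ch25h+/+ or in Ch25h loss in Tau+, under every setting tried. Diamonds are the reported values, circles leave out 1 library, squares are other settings and open marks did not pass an adjusted p of 0.05. Every value kept its direction. The open squares at -1.85 (Tlr2) and -0.97 (Ly86) are the library class covariate, which rests on replicate 1 of Ch25h-/- Tau+ there.

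Ch25h loss in Tau- gave no gene past the threshold (edgeR), against 1.03% of all genes, and 0 of the 10 had an unadjusted p under 0.05, against 20.9% of all genes. DESeq2 and limma-voom also called 0 of the 10, beside 7.16% and 7.84% of all genes. The log2 fold changes ran from -0.48 for Cd14 to 0.53 for Tlr4, with a median of 0.14, and were above 0 for 7 genes and for 51.4% of all genes. With the class covariate Tlr1 (0.16) and Tlr4 (0.18) stayed above 0. Tlr2 (-0.31), Tlr7 (-0.82), Tlr9 (-0.15), Ly86 (-0.20) and Ly96 (-0.41) turned below 0. The class term in that fit is set by replicate 1 of Ch25h-/- Tau+ against the rest of its group. The interaction, which tests whether the tau effect differs with Ch25h, was below 0 for all 10 genes, with a median of -0.76 and a range of -1.69 to -0.27, while 53.7% of all genes were above 0. No gene passed (edgeR; smallest adjusted p 0.288, for Tlr2), against 0.0338% of all genes, 5 had an unadjusted p under 0.05, against 4.13%, and DESeq2 and limma-voom called 0. The difference in tau response between the Ch25h genotypes was therefore not shown for any 1 of these genes after adjustment. The interaction of Tlr2 was a log2 fold change of -1.69 (SE 0.43, unadjusted p 0.00107, edgeR), that of Unc93b1 -0.60 (SE 0.17, adjusted p = 0.387) and that of Ly86 -0.82 (SE 0.27, adjusted p = 0.624).

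Microglia markers moved with the same groups. The 9 markers Aif1, Csf1r, Cx3cr1, P2ry12, Tmem119, Fcrls, Itgam, Sall1 and Siglech were all detected in every group and summed to 261 to 286 CPM in Ch25h+/+ Tau- and 319 to 383 CPM in Ch25h+/+ Tau+. The sums were 240.0 to 283 CPM in Ch25h-/- Tau- and 259 to 295 CPM in Ch25h-/- Tau+. Of the 9 markers, 2 rose with tau in Ch25h+/+ (Csf1r and Cx3cr1, against 1.47% of all genes) by edgeR's quasi-likelihood test. By the same test 3 fell with Ch25h loss in Tau+ (these and Tmem119, against 2.4% of all genes). All 9 were above 0 with tau in Ch25h+/+ (median log2 fold change 0.27). With Ch25h loss in Tau+, 2 of the 9 were above 0 (median -0.43, range -0.65 to 0.23). The medians of the 10 Toll-like receptor genes in the same comparisons were 0.83 and -0.64. All 5 astrocyte markers (median log2 fold change 0.19) and all 4 endothelial markers (0.21) were above 0 with tau in Ch25h+/+, and all of them were below 0 in the interaction (medians -0.25 and -0.18), where the median of the microglia markers was -0.25. In bulk tissue, fewer cells of a type and less RNA per cell cannot be told apart, and the part of microglia number in these results was not tested. Markers of border-associated macrophages summed to 12.9 to 21.9 CPM in Ch25h+/+ Tau+ and 6.49 to 17.0 CPM in the other 3 groups, and 1 of them, Ms4a7, was called in both comparisons. The 7 of these markers that were tested lay near the 10 genes in median. They had 0.69 with tau in Ch25h+/+ (all 7 above 0), -0.58 with Ch25h loss in Tau+ (1 above 0) and -0.81 in the interaction (1 above 0). The 10 genes had 0.83, -0.64 and -0.76. Monocyte and neutrophil markers summed to 0.654 to 3.13 CPM, with Ly6g at 0 in Ch25h+/+ Tau+ and in Ch25h-/- Tau-. B cell markers summed to 0.12 to 1.42 CPM, with Ms4a1 at 0 in both Ch25h-/- groups, and Cd3d, a T cell marker, was at 0 in the same groups. The 4 T cell markers moved with the Toll-like receptor genes, at 0.511 to 1.03 CPM in sum in Ch25h+/+ Tau+ and 0.0 to 0.382 CPM in the other 12 libraries, without overlap. The means were 0.685 CPM in Ch25h+/+ Tau+, 0.223 in Ch25h+/+ Tau-, 0.13 in Ch25h-/- Tau- and 0.118 in Ch25h-/- Tau+. None of the 4 was high enough to be tested alone, and the part of T cells in these results was not tested.

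**Figure D4:**
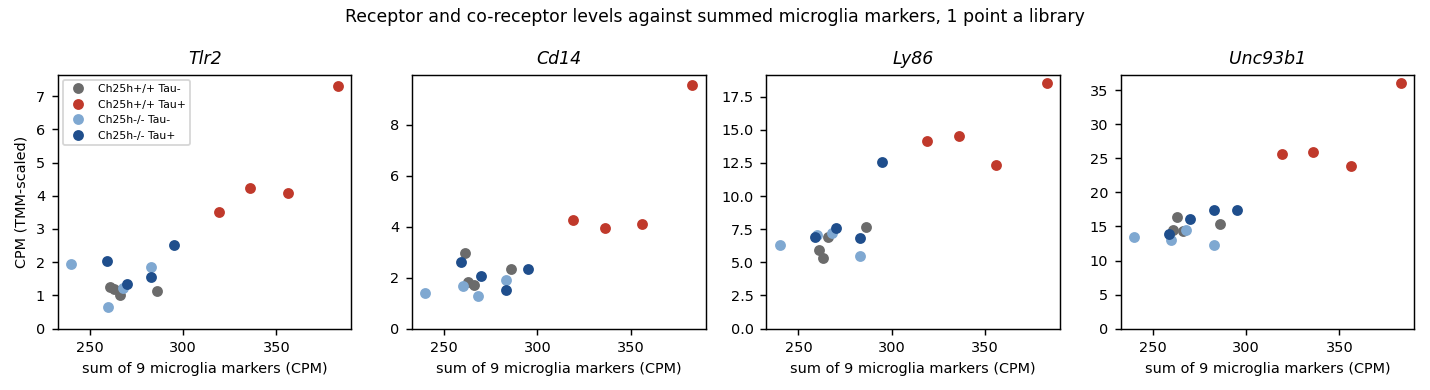
Level of Tlr2, Cd14, Ly86 and Unc93b1 in CPM (TMM-scaled) against the summed CPM of 9 microglia markers, 1 point per library, coloured by group. The 4 Ch25h+/+ Tau+ libraries lie at 319 to 383 CPM of markers and the other 12 at 240.0 to 295 CPM, and the library with the highest marker sum, Ch25h+/+ Tau+ replicate 4, is also the highest for all 4 genes.

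Within groups, the libraries that were high for these genes were those with high microglia marker sums in some groups and not in others. In Ch25h+/+ Tau+, replicate 4 was the highest library for 6 of the 10 genes and had the highest microglia marker sum of the group, 383 CPM, and replicate 1 was the lowest for 6 genes and had the lowest sum, 319 CPM. In Ch25h-/- Tau+, replicate 2 was the highest library for 7 genes and again had the highest sum of its group, 295 CPM. In Ch25h+/+ Tau-, replicate 2 had the lowest sum, 261 CPM, but was the highest library for 4 genes and the lowest for 0. In Ch25h-/- Tau-, replicate 1 had the highest sum, 283 CPM, and was the lowest for 4 genes, and replicate 2 had the lowest sum, 240.0 CPM, and was the highest for 3 genes and the lowest for 3. After group means were removed, 34 of the 45 pairs of the 10 genes had a correlation above 0 over the 16 libraries (Pearson r of log2(CPM + 0.5), median 0.24, range -0.406 to 0.679), a description of libraries that share depth and tissue sampling. By the same measure, the gene most like Tlr2 among 13423 others was Gusb, which encodes a lysosomal glucuronidase (r = 0.815 with group means removed, 0.842 over all 16 libraries as they stand). With both values in that order, it was Pros1 for Cd14 (0.838 and 0.882), Tmem229a for Tlr9 (0.954 and 0.866), Ammecr1 for Tlr4 (0.876 and 0.748) and Snx5 for Ly86 (0.841 and 0.68). It was Pkd2l2 for Ly96 (0.806 and 0.522) and Ociad2 for Myd88 (0.806 and 0.519). For Tlr7 it was Hectd2 (0.876 and 0.08) and for Tlr1 Ankrd49 (0.929 and 0.074), a likeness seen within groups and nearly absent over all libraries. Each is the highest of many values, and these are descriptions.

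The other Toll-like receptors did not pass edgeR's test in any comparison with all 16 libraries. Of 7 listed, 5 were tested, and Tlr8 and Tlr11 were too low. In the tau effect in Ch25h+/+, 2 of the 5, Tlr3 and Tlr13, had an unadjusted p under 0.05 and passed with limma-voom, and DESeq2 called 0. Tlr3 was also called there by edgeR when Ch25h+/+ Tau+ replicate 1 was left out. Tlr3, the endosomal sensor of double-stranded RNA, averaged 11.8 CPM in Ch25h+/+ Tau- and 14.5 to 14.7 CPM in the other 3 groups. Tlr13, a sensor of bacterial ribosomal RNA, averaged 1.92 and 3.27 CPM in Ch25h+/+ Tau- and Tau+ (adjusted p = 0.219, edgeR), and Tlr6, the other partner of Tlr2, 0.969 and 1.24 CPM (adjusted p = 0.894). Tlr8 averaged 0.0960 to 0.221 CPM over the 4 groups.

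Across the rest of the pathway, 99 genes were listed by role and 82 were tested. Of these, 6 (Lilrb4a, Il1b, Ccl3, Ccl4, Cxcl10 and Cd40) reached the filter's 0.543 CPM of total counts in fewer than 4 of the 12 libraries outside Ch25h+/+ Tau+, so they would not have been tested without the Ch25h+/+ Tau+ libraries and are left out of the counts that follow. In the tau effect in Ch25h+/+, 11 of the remaining 76 rose and none fell (14.5%, edgeR, against 1.47% of all genes higher), and the median log2 difference was 0.15. In Ch25h-/- none passed with edgeR, DESeq2 or limma-voom, and 7 of the 76 had an unadjusted p under 0.05, against 3.68% of all genes. With Ch25h loss in Tau+, 8 fell (10.5%, against 2.4% of all genes lower), with a median of -0.17. A single gene rose there and a single gene fell with Ch25h loss in Tau-, each 1.32% of the 76, near the 1.14% of all genes that rose and not far from the 0.812% that fell. No count is given with the class covariate for Ch25h loss in Tau+, since it rests there on replicate 1 of Ch25h-/- Tau+ alone. The interaction called 1 gene, Ctss, and this call was lost in 2 of 16 fits, when Ch25h-/- Tau+ replicate 3 or replicate 4 was left out (adjusted p up to 0.0589, edgeR).

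**Figure D5:**
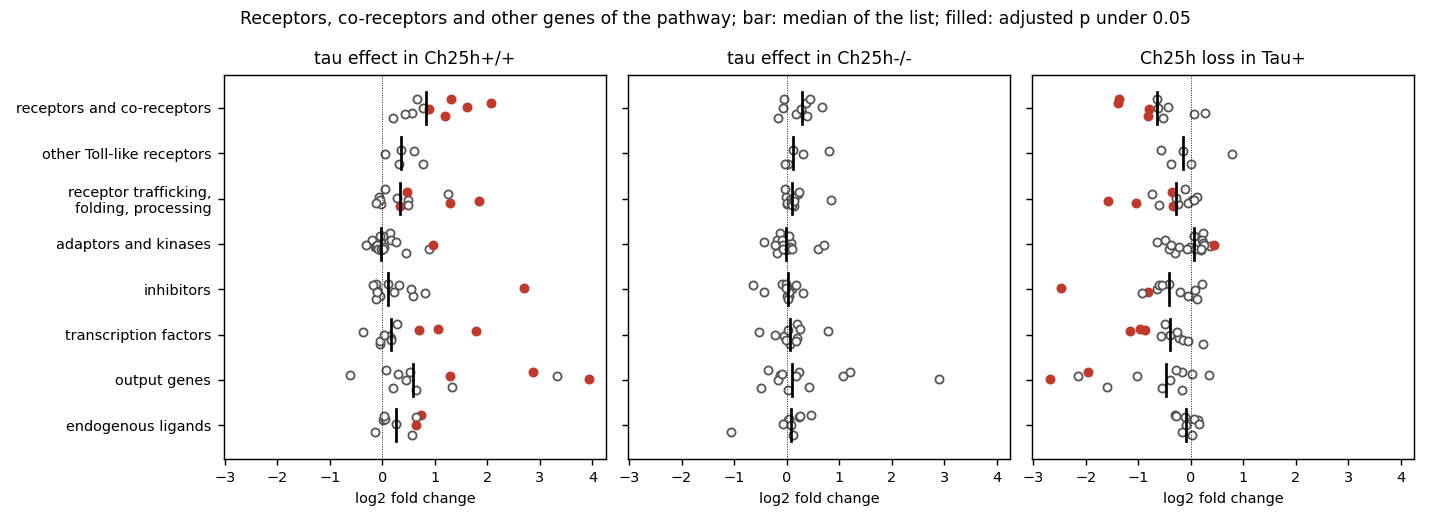
Log2 fold change of the 10 Toll-like receptor genes and of the other tested pathway genes by role, in 3 comparisons. Each circle is a gene, filled where the adjusted p was under 0.05 (the 6 genes left out of the counts are drawn too), and bars are medians of each list; in the tau effect in Ch25h+/+ the median was 0.83 for the 10 genes and -0.02 for adaptors and kinases.

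Genes that process or fold the receptors gave 4 of 13 higher with tau in Ch25h+/+ and the same 4 lower with Ch25h loss in Tau+ (Ctss, Slc15a3, Ctsl and Lgmn). Ctss encodes cathepsin S, one of the proteases that cut endosomal receptors into their active form, and averaged 42.5 ± 2.81 CPM in Ch25h+/+ Tau-, 103 ± 14.6 in Ch25h+/+ Tau+, 46.8 ± 5.22 in Ch25h-/- Tau- and 49.99 ± 8.07 in Ch25h-/- Tau+ (SD, n = 4). It rose 2.43-fold with tau in Ch25h+/+ (adjusted p = 4.1e-06, edgeR) and its interaction passed, with a log2 fold change of -1.19 (adjusted p = 0.0131). It fell with Ch25h loss in Tau+ (log2 fold change -1.05, adjusted p = 8.71e-05, edgeR). With the class covariate the value was -1.23, which rests on replicate 1 of Ch25h-/- Tau+ alone and so cannot show that the fall is apart from library class. Slc15a3, an endolysosomal peptide transporter, rose 3.58-fold with tau in Ch25h+/+ (adjusted p = 0.000914, edgeR), and Ctsl, another receptor-cutting cathepsin, rose 1.38-fold (0.00471). The Ch25h loss call of Ctsl (-0.35) was kept in 11 of the 16 fits with 1 library left out and lost in a fit of only the 8 Tau+ libraries. Without known strand Slc15a3 and Ctsl are uncertain, since exons of Slc15a3 share 1541 of 5491 bases with Tmem132a on the opposite strand and those of Ctsl 1742 of 6489 bases with Gm47123.

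Adaptors and kinases gave 1 of 19 higher with tau in Ch25h+/+, Pik3ap1, which links receptors to PI3 kinase (1.95-fold, adjusted p = 0.0171, edgeR). The single gene that rose with Ch25h loss in Tau+ was the IkappaB kinase gene Chuk (log2 fold change 0.44, adjusted p = 0.0378, edgeR), called in 9 of the 16 fits with 1 library left out and lost with GC-corrected offsets and in a fit of only the 8 Tau+ libraries. Among 12 inhibitors, Nrros fell with Ch25h loss in Tau+ (-0.82, adjusted p = 0.00151, edgeR), and Tnip1 fell with Ch25h loss in Tau- (-0.34, 0.0476), a call that held in 3 of those 16 fits and was lost with no filter and with GC-corrected offsets. The tau call of Pik3ap1 was lost when replicate 4 of Ch25h+/+ Tau+ or replicate 1, 2 or 4 of Ch25h+/+ Tau- was left out and in a fit of only the 8 Ch25h+/+ libraries (adjusted p up to 0.0829 over all alternatives). Lilrb4a, an inhibitory receptor of myeloid cells that is 1 of the 6 genes left out, averaged 0.322 CPM in Ch25h+/+ Tau-, 2.12 in Ch25h+/+ Tau+, 0.389 in Ch25h-/- Tau- and 0.388 in Ch25h-/- Tau+. Exons of Lilrb4a share 1846 of 5227 bases with Gm49339 on the same strand, so its counts are uncertain.

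Of 11 transcription factors, Irf8, Irf7 and Irf5 rose with tau in Ch25h+/+ and fell with Ch25h loss in Tau+. These 3 interferon regulatory factors act in myeloid cells downstream of endosomal receptors. Irf7 averaged 2.17 and 7.52 CPM in Ch25h+/+ Tau- and Tau+, and 1.94 and 3.39 CPM in Ch25h-/-. Its fold with tau in Ch25h+/+ was 3.45 (adjusted p = 0.0029, edgeR), that of Irf8 was 2.08 (0.00225) and that of Irf5 was 1.62 (0.0164). The tau call of Irf5 was lost when replicate 4 of Ch25h+/+ Tau+ or replicate 1 or 3 of Ch25h+/+ Tau- was left out and in a fit of only the 8 Ch25h+/+ libraries (adjusted p up to 0.0898 over all alternatives). The Ch25h loss call of Irf7 (log2 fold change -1.15) was kept in 11 of the 16 fits with 1 library left out, was lost without replicate 1 or 4 of Ch25h+/+ Tau+ or replicate 1, 3 or 4 of Ch25h-/- Tau+ (-0.90 at the weakest), and was lost with GC-corrected offsets and in a fit of only the 8 Tau+ libraries. Those of Irf8 and Irf5 were kept in all 16. Exons of Irf5 share 411 of 2905 bases with Tnpo3 on the opposite strand, so without known strand its counts are uncertain to that extent. Of the 5 NF-kappaB subunit genes Rela, Relb, Rel, Nfkb1 and Nfkb2, edgeR called 0 in any comparison. An unadjusted p under 0.05 was found for 3 of them with Ch25h loss in Tau+ and for 3 with Ch25h loss in Tau-, beside 23.9% and 20.9% of all genes, for 1 in the tau effect in Ch25h-/- and for 0 in the tau effect in Ch25h+/+ and the interaction. DESeq2 called 1 and limma-voom 2 with Ch25h loss in Tau+, beside 9.79% and 10.6% of all genes, and both called 0 elsewhere.

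Of 24 output genes of the pathway, 12 were too low to test, among them Tnf, Il6, Ifnb1, Ccl2 and Ccl5. Il1b, Ccl3, Ccl4, Cxcl10 and Cd40 are the others left out of the counts, and levels alone are given for Cxcl10 and Ccl4. The interferon-induced chemokine gene Cxcl10 averaged 0.399 and 2.97 CPM in Ch25h+/+ Tau- and Tau+ and 0.325 and 0.784 CPM in Ch25h-/-. The chemokine gene Ccl4 was at 0.0619 CPM in Ch25h+/+ Tau- and 1.01 CPM in Ch25h+/+ Tau+, from 5 and 84 counts over the 4 libraries of each group, and the lower level is under that of 3 counts in a library (0.117 to 0.195 CPM). Of the remaining 7 output genes, 1 was called. Cd86, a co-stimulatory ligand, was 2.43-fold higher with tau in Ch25h+/+ (adjusted p = 0.0237). Its tau call was kept in 9 of the 16 fits with 1 library left out. Among 9 endogenous ligands tested, Fn1 and Bgn, matrix proteins that Toll-like receptors can bind, rose with tau in Ch25h+/+ (1.55-fold and 1.66-fold, adjusted p = 0.0357 and 0.0367, edgeR) and did not pass in the other comparisons (edgeR). Their tau calls were kept in 10 and 11 of the 16 fits with 1 library left out, and that of Bgn was lost in a fit of only the 8 Ch25h+/+ libraries. For Ch25h loss in Tau-, Fn1 (log2 fold change 0.46) was called with no filter on low counts and by DESeq2, beside 1.54% and 7.16% of all genes.

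Tlr2 and Unc93b1 lie on chromosomes that carry other called genes. On chromosome 3, 19 other genes rose and 9 fell with tau in Ch25h+/+ among 906 tested (2.1% and 0.994%, against 1.47% and 0.0902% of all genes), the nearest to Tlr2 being Pbxip1 at a distance of 5.6 Mb. With Ch25h loss in Tau+, 19 others rose and 17 fell on this chromosome (2.1% and 1.88%, against 1.14% and 2.4% of all genes). The nearest of them to Tlr2 was Map9 at 1.5 Mb, which rose (log2 fold change 0.35, adjusted p = 0.0315, edgeR). On chromosome 19, which holds Ch25h, 28 genes other than Ch25h and Unc93b1 fell and 9 rose with Ch25h loss in Tau+ among 543 tested (5.18% and 1.66%, against 2.4% and 1.14% of all genes). With Ch25h loss in Tau-, 15 others fell and 3 rose there (2.77% and 0.555%, against 0.812% and 0.214%). Tcirg1, which encodes a subunit of the proton pump that acidifies lysosomes, lies 28.1 kb from Unc93b1 and was called in the same directions, at 0.43 with tau in Ch25h+/+ (adjusted p = 0.0435, edgeR) and -0.58 with Ch25h loss in Tau+ (0.00778). The part of linked sequence in the values of Tlr2 and Unc93b1 was not tested.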

How the data were processed

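The deposited table holds whole-number read counts per gene, with no normalization by the authors per the values, which sum to a different total in each library. The submitters' processing notes list STAR 2.7 and the builds GRCm38 and mm10; per the labels' protocols, libraries were made with a SMARTer kit. The counting program, annotation and strand setting are not given in the sources used here. The 10 genes, the lists and the alternatives were chosen with earlier results of these data known.

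After filterByExpr (4 groups), genes were tested with edgeR 4.0.16 in R 4.3.3 (quasi-likelihood F test, two-sided, TMM) in 1 fit of 16 libraries with a mean per group, with Benjamini-Hochberg adjustment over 17736 genes at 0.05. The fit was tested on simulated data. The 95% intervals come from the fit's standard errors, and cover the spread between these libraries. CPM used TMM-scaled library sizes. Positions and exon lengths came from GENCODE M21 (GRCm38) and promoters from RefSeq (GRCm38.p6). Totals of 15530352 to 25602500 counts make 3 counts equal to 0.117 to 0.195 CPM.

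Named were all 10 genes, up to 3 called genes per pathway list with the smallest adjusted p, Cd180, Tlr3, Tlr6, Tlr8, Tlr13, the 1 gene most like each of the 10 except Unc93b1, for which it is not reported here (mean of at least 50 counts, Pearson r after group means were removed), and Ch25h, Prnp and CT010467.1 as checks. Lgmn, Il1b, Ccl3, Cd40, Ms4a7, Cd3d, Pbxip1, Map9, Tcirg1, the NF-kappaB subunit genes and the microglia markers named as called were named after their values were seen. Alternatives were RLE size factors, no filter, a minimum mean of 50 counts, DESeq2 1.42.0, limma-voom with quality weights (limma 3.58.1), only the 8 libraries compared, a covariate for library class (CT010467.1 at 1000 CPM or more), GC-corrected offsets (loess, span 0.5), levels as CPM of total counts, and 1 library left out at a time, and, chosen after seeing the data, pathway counts without genes that reached the filter in fewer than 4 of the 12 libraries outside Ch25h+/+ Tau+. Replicate numbers follow record order and pair nothing.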

Additional observations from a re-analysis of the deposited data

Results flagged for a closer look

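In 5 of the 40 sets of 4 libraries tested (10 genes in 4 groups), the highest library stood apart from the other 3 by more than Dixon's 95% criterion, where chance gives about 5% of sets. In Ch25h+/+ Tau+, replicate 4 stood apart for Cd14 (9.56 CPM, next 4.25), for Unc93b1 (36.1 CPM, next 26.0) and for Tlr4 (2.05 CPM, next 1.34). In Ch25h-/- Tau+, replicate 2 stood apart for Ly86 (12.6 CPM, next 7.58) and replicate 3 for Ly96 (1.42 CPM, next 0.519), the latter from 25 counts. The sets are not independent, since 3 of the 5 share a library.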

How the results depend on the processing

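Of the 10 genes, 5 passed for tau in Ch25h+/+, 3 passed with a mean of at least 50 counts (which leaves Tlr1, Tlr2, Tlr4 and Ly96 untested), 3 in a fit of only the 8 libraries, 4 with no filter (Tlr1 lost), 5 with DESeq2 and 7 with limma-voom (Tlr7 and Tlr9 added); leaving out 1 library gave 3 to 6. Of all genes, 1.56% passed there, 1.18% with only the 8 libraries, 2.39% with DESeq2 and 2.81% with limma-voom. For Ch25h loss in Tau+, 4 passed, 1 with only the 8 libraries, 5 with DESeq2 (Myd88 added), 6 with limma-voom (Tlr7 and Tlr9 added) and 1 to 5 with 1 library left out. Of all genes, 3.55% passed there, 0.625% with only the 8 libraries, 9.79% with DESeq2 and 10.6% with limma-voom. Counts with the class covariate are left out for this comparison, since it rests there on replicate 1 of Ch25h-/- Tau+. The counts of the 10 genes for tau in Ch25h-/-, Ch25h loss in Tau- and the interaction were 0 under every alternative run, including each library left out. The calls of Tlr2, Ly86 and Unc93b1 for tau in Ch25h+/+ held under every alternative that tested them.

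Of the 76 other pathway genes that passed the filter outside Ch25h+/+ Tau+ (a restriction chosen after seeing the data), 11 passed for tau in Ch25h+/+ (8 libraries 8, limma-voom 14, 1 library left out 5 to 12) and 9 for Ch25h loss in Tau+ (8 libraries 5, limma-voom 17, DESeq2 15, 1 library left out 5 to 12). Over all 82 these were 14 (7 to 17 with 1 library left out) and 12 (8 libraries 5, limma-voom 22, 1 library left out 5 to 15), which include genes that had to differ to be tested and support nothing. For Ch25h loss in Tau- 1 of the 76 or 82 passed (class covariate 0, GC-corrected offsets 0, 8 libraries 3, limma-voom 4, DESeq2 4, 1 library left out 0 to 6), where 1.03% of all genes passed, and 7.27%, 7.84% and 7.16% with the 8 libraries, limma-voom and DESeq2. For the interaction 1 passed (no filter 2, DESeq2 2, 1 library left out 0 to 1). No called value changed sign; 89 values that had not passed did. No paired analysis was possible because replicate numbers follow record order. The interaction has no fit of 8 libraries.

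Depth limits Tlr1 and Ly96 most, with 175 and 190 counts in all, and 7 of 8 Ch25h-/- libraries were rRNA-rich, so that Ch25h loss rests on groups that also differ in library class. Tissue, cell number and linked sequence were not separated from genotype.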
